A study of Mus musculus with 13 samples.

Results

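The Paneth-like cells of colon tumors were 0.781% of the tumor barcodes that passed quality filters, 733 of 93871, against 118892 passing barcodes in all 13 libraries. They were chosen by their own transcript counts: a barcode (a droplet tag standing for 1 cell) was kept with at least 500 unique molecular identifiers (UMIs, each 1 counted RNA molecule), at least 200 genes and under 25% mitochondrial UMIs, and it was counted as Paneth-like with at least 10 UMIs of Lyz1, at least 5 UMIs of Defa24, Mmp7, Ang4 and Itln1 together, at least 3 of Epcam, Krt8 and Krt18 together, and none of Ptprc, the pan-leukocyte gene. The 17747 other epithelial tumor barcodes, with at least 10 UMIs of Epcam, Krt8 and Krt18 and fewer than 10 of Lyz1, served for comparison. Values of these 9 genes, and of the other alpha-defensins, are given as descriptions, without a test between populations, because they chose the cells or belong to the same granule family.

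The libraries for single-cell RNA-seq came from 3 C57BL/6J mice, 10 from colon tumors and 3 from the mucosa beside them. Every animal was ApcMin/+; p16cis/cis, carrying the Min mutation of the Wnt pathway gatekeeper Apc together with an engineered epimutation of p16, and every animal ate the supplemented diet, so neither genotype nor diet varies among these libraries. Mouse A (24 weeks) gave tumors 5 to 8 and mucosa 2, mouse B (23 weeks) gave tumors 9 and 10 and mucosa 3, and mouse C (20 weeks) gave tumors 1 to 4 and mucosa 1. The tumors of 1 mouse are not independent animals, and age, mouse and any difference between preparations cannot be told apart. Tumors were dissociated with an enzymatic tumor kit and mucosa with EDTA followed by TrypLE, and the mucosa values are given without a test.

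Paneth cells sit at the base of small intestinal crypts, where they pack lysozyme, alpha-defensins and other antimicrobial proteins into large granules and supply Wnt, Notch and growth factor ligands to the neighboring Lgr5+ stem cells. The healthy mouse colon has very few of them, and its crypt base instead holds deep crypt secretory cells, which are marked by Reg4 and Kit and belong to the goblet side of the secretory lineage. Atoh1 opens that lineage, Gfi1 and Spdef act within it, and high Wnt signaling with Sox9 favors the Paneth fate. Paneth-like cells are also known from Apc-mutant intestinal tumors.

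The bases just upstream of the start sites of the marker genes of the rule are shown so that their regulatory letters stand beside the expression values. Of the 5 markers, Lyz1, Mmp7, Ang4 and Itln1 had entries, taken from RefSeq on build GRCm38.p6 (the assembly the files name mm10), and each run holds 250 bases, 5′ to 3′ on the strand of the gene and ending at the start site. Lyz1 lies at chr10:117292869-117293118 on the minus strand, Mmp7 at chr9:7691840-7692089 on the plus strand (the more upstream of its 2 listed starts), Ang4 at chr14:51773591-51773840 on the minus strand and Itln1 at chr1:171535295-171535544 on the minus strand. Capitals mark an E-box searched as CAGCTG or CAGATG, the kind of site bound by Atoh1 and other basic helix-loop-helix factors.
Lyz1: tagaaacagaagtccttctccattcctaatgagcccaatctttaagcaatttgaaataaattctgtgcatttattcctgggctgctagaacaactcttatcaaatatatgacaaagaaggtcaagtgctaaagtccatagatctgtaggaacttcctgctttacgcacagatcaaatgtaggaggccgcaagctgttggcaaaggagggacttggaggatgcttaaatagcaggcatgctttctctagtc
Mmp7: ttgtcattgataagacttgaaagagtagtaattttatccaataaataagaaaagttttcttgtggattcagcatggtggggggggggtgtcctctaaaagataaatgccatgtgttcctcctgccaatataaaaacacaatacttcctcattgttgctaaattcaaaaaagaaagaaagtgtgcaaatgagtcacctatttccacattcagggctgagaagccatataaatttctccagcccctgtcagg
Ang4: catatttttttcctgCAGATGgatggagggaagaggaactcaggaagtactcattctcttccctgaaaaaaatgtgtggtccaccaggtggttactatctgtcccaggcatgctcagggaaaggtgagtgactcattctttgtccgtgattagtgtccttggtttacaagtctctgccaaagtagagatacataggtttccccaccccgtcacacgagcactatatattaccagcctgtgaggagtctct
Itln1: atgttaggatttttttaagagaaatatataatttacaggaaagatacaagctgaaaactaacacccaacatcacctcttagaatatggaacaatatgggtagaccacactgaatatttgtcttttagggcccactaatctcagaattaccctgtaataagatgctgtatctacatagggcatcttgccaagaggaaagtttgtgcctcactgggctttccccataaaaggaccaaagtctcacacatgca
The E-box letters were in the Ang4 window alone, 235 bases before the start. On both strands, 25.5% of all 32851 windows of this length hold them. The TCF/LEF core CTTTGA, by which the Wnt pathway acts on DNA, was in none of the 4 windows shown on either strand, in the window of the second Mmp7 start, and in 13.8% of all windows. These are letter matches in short windows and carry no measurement of binding.

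Tumor libraries held between 57221300 and 93157039 UMIs. Paneth-like barcodes were slightly deeper than the compared ones, with medians of 15976 and 13580 UMIs and 3673 and 3449 genes, which a rule asking for minimum counts can itself produce. Summed over a tumor, they gave between 464910 and 3394706 UMIs, against 23358165 to 43225508 in the other epithelium, so their values are the less precise ones. A doublet score marked 137 of the Paneth-like barcodes (18.7%) and 15.0% of the compared ones. Tumor 7 stood apart with 24 of its 32 cells marked, followed by tumor 10 with 12 of 28, tumor 5 with 10 of 30 and tumor 1 with 36 of 112. No barcode sequence was Paneth-like in 2 tumors, and 20 of them also occurred among the passing barcodes of another tumor (2.73%, against 2.17% of all passing tumor barcodes). The labels call 7 of the 13 libraries female and give 2 animals both sexes, yet Xist was at most 0.134 CPM (counts per 1000000 UMIs) and the 4 Y-linked genes Ddx3y, Eif2s3y, Kdm5d and Uty together lay between 105 and 129 in every library. Sex was used in no comparison.

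Lyz1, the secreted lysozyme of Paneth granules, was the dominant marker. In CPM of the summed Paneth-like cells, it lay between 13748 and 42809 (median 29209) over the 10 tumors, and between 7.07 and 19.2 (median 10.8) in the other epithelium. It was highest in tumor 3 and lowest in tumors 9 and 10, the tumors of mouse B. Mmp7, the matrix metalloproteinase that cleaves pro-defensins, lay between 2435 and 5794 (median 5013) and had UMIs in 730 of the 733 cells. Itln1, a lectin binding microbial sugars, lay between 1463 and 3530.1 (median 2159), and Ang4, an antimicrobial ribonuclease, between 599 and 4842 (median 2644), with tumors 5 and 9 lowest. None of these values overlapped those of the compared epithelium, where the medians were 209 CPM for Mmp7, 78.7 for Itln1 and 2.89 for Ang4. The rule fixes that separation for Lyz1. It favors the separation of Mmp7, Itln1 and Ang4, whose counts it asks for in Paneth-like cells and does not limit in the others. None of it is read as a result.

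**Figure D1:**
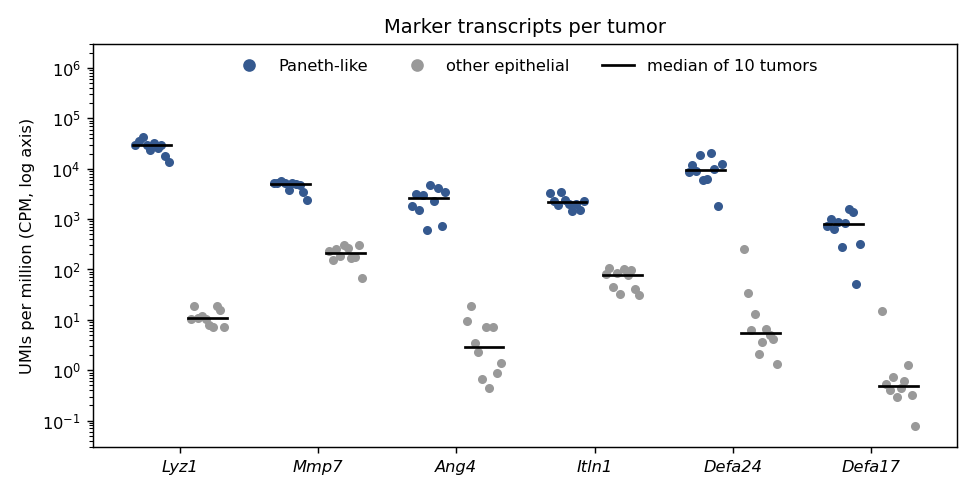
Counts per 1000000 UMIs (CPM, log axis) of the genes of the rule and of Defa17, summed over the Paneth-like cells (blue) and the other epithelial barcodes (gray) of each of the 10 tumors, with the median as a line. Lyz1 sits between 13748 and 42809 CPM in Paneth-like cells, and the spread between tumors is widest for Defa24 and Defa17.

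Few cells lay near the Lyz1 threshold. Of tumor barcodes meeting the other criteria, 33 held 7 to 9 Lyz1 UMIs and 21 held 10 to 12, with median Mmp7 counts of 11 and 8 UMIs, while the median Paneth-like cell held 218 Lyz1 UMIs and the largest 8471. Droplets also carry free RNA: 8.37% of the 5487 T cell barcodes of the same tumors (median 3851 UMIs) had a Lyz1 UMI, with at most 7. None of them reached 10, which allows a share of up to 0.0547% (counting error only).

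Paneth-like cells were found in all 10 tumors, as 1.45 to 8.52% (median 2.90%) of Paneth-like plus other epithelial barcodes. In mouse C the shares were 6.14%, 8.52%, 3.59% and 4.94% in tumors 1 to 4. In mouse A they were 1.45%, 1.67%, 1.68% and 6.07% in tumors 5 to 8, and in mouse B 2.17% and 2.20%. Tumor 8 thus had a share in the range of the tumors of mouse C. Without doublet-marked barcodes the share of tumor 7 was 0.528% and that of tumor 10 1.45%, and the range over tumors was 0.528 to 8.69%. The means were 5.80 ± 2.09% in mouse C (SD, n = 4 tumors), 2.72 ± 2.24% in mouse A (n = 4) and 2.19% in mouse B (n = 2). An exact permutation test of the F statistic over all 3150 arrangements of tumors among mice gave p = 0.117, which did not reach 0.05. Without tumor 8, the tumor of mouse A with the high share, the exact permutation p was 0.0405. With any other single tumor left out it lay between 0.0778 and 0.229, and no difference between mice is read.

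**Figure D2:**
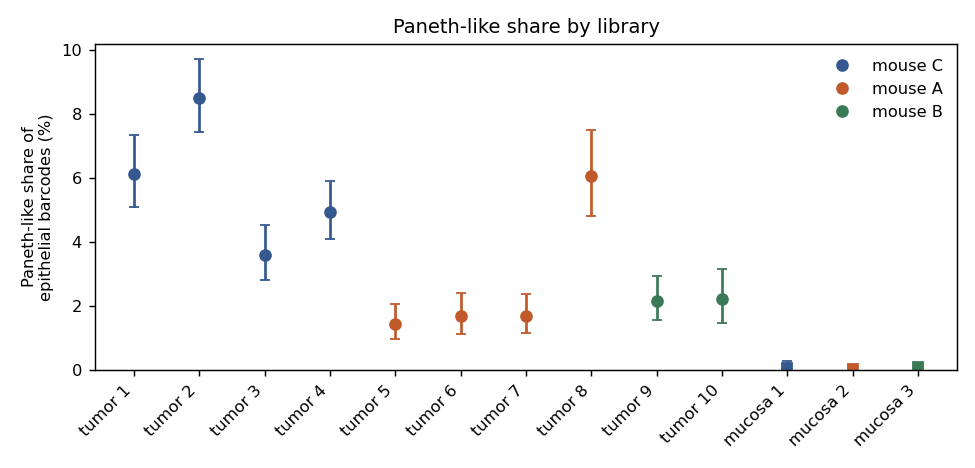
Paneth-like cells as a percentage of Paneth-like plus other epithelial barcodes in each library, colored by mouse, with 95% Clopper-Pearson intervals, which cover counting error only. Tumors (circles) run from 1.45 to 8.52%, and the 3 mucosa libraries (squares) lie at 0.0836% or lower.

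In the adjacent mucosa the same rule found 2, 2 and 5 cells among 2729, 8041 and 5978 epithelial barcodes, a pooled share of 0.0537% (exact interval 0.0246 to 0.102%) against 3.97% over the tumors. These 9 mucosal cells had 14 to 1682 Lyz1 UMIs (median 211). The dissociation differed between the tissues, and tissue and dissociation cannot be told apart.

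The alpha-defensins divided the Paneth-like cells. These cationic granule peptides kill bacteria and are the classic Paneth cell product. Over the 27 annotated genes of the cluster on chromosome 8, 403 of 733 cells (55.0%) had no alpha-defensin UMI, 131 had 1 to 9, 69 had 10 to 99, 84 had 100 or more but fewer than 1000, and 46 had 1000 or more. The richest 73 cells held 92.6% of all alpha-defensin UMIs, compared with 51.4% for Lyz1 and 38.8% for Mmp7, and in 1 cell alpha-defensins were 43.0% of all UMIs. Cells with at least 10 alpha-defensin UMIs had a median of 16195 UMIs in all, and cells with none 16047. Doublet marks were on 16.6% and 20.3% of them. Defa24, a marker of the rule, was at 0 in the median cell and present in 36.0%, 212 cells had UMIs of Defa24, Mmp7, Ang4 and Itln1 alike, and 38 reached that sum through Mmp7 alone.

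**Figure D3:**
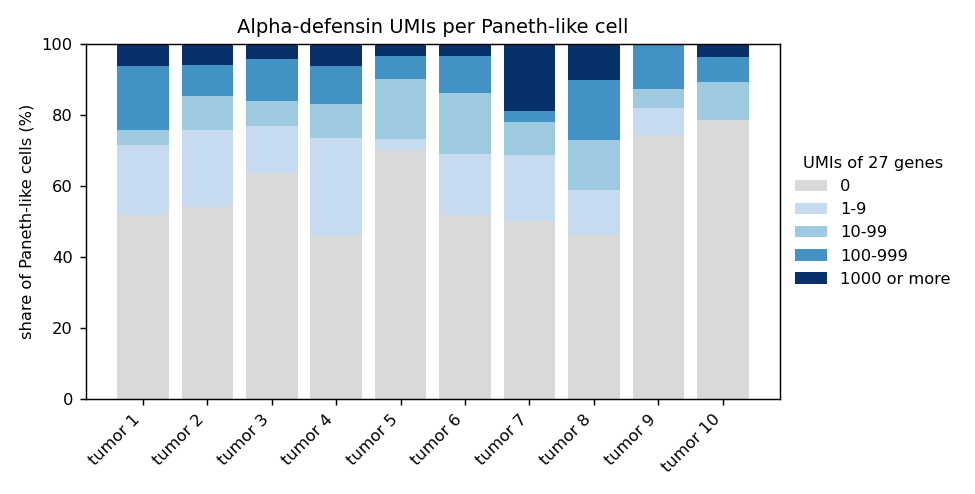
Share of the Paneth-like cells of each tumor by their number of alpha-defensin UMIs, summed over 27 genes. Cells with none are the largest class in every tumor, and cells with 10 or more run from 17.9% in tumor 9 to 41.0% in tumor 8.

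Defensin-bearing cells occurred in every tumor, with 10 or more UMIs in 17.9 to 41.0% of its Paneth-like cells, while the summed level ran from 2055 CPM in tumor 9 to 32904 CPM in tumor 7. A few cells set those sums. In tumor 10, 1 cell of 28 gave 96.9% of the alpha-defensin UMIs, and in the other tumors the top cell gave 17.0 to 55.5%. Defa24 led in all 10 tumors, with 61.2 to 90.8% of the alpha-defensin UMIs. Over all tumors it gave 70.9%, followed by Defa36 with 6.81%, Defa17 with 5.24%, Defa22 with 3.95%, Defa21 with 3.33%, Defa30 with 2.29%, Gm15293 with 2.15% and Defa5 with 2.06%. These genes are near-identical copies, so the split of reads among them is uncertain. Among the compared epithelium, 19 barcodes held 10 or more Defa24 UMIs with fewer than 10 of Lyz1; 3 of them, in tumor 1, lifted that tumor to 261 CPM against a median of 5.56.

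Set beside the cells without any alpha-defensin UMI, the defensin-bearing cells carried more of several other products. This division was made after the values were seen and has no test, and the values are medians over 10 tumors of the summed cells. Defa24, a gene of the rule, gave 70.9% of the alpha-defensin UMIs that divide the cells. Lyz1, Itln1 and Ang4 belong to the rule as well. Lyz1 was at 50215 against 18896 CPM and higher in all 10 tumors, Itln1 at 4609.7 against 1059 CPM and Clps at 1509 against 447 CPM, each also higher in 10 of 10. Ang4 was at 3865 against 1579.7 CPM and Ccl6 at 996 against 584 CPM, higher in 9 of 10. The goblet mucin Muc2 was higher too, at 2928 against 1682 CPM in 9 of 10 tumors, as was Reg4 at 3596 against 2127 CPM. Of the lineage factors, Sox9 was at 159 against 236 CPM, higher in 4 of 10 tumors, Atoh1 at 57.7 against 52.6 CPM, Spdef at 122 against 121 CPM and Xbp1 at 163 against 164 CPM. The Notch ligand Dll4 (18.7 against 28.8 CPM), the proliferation gene Mki67 (31.9 against 78.4 CPM) and the growth factor Ptn (4.06 against 27.1 CPM) were higher with defensins in only 1, 2 and 1 of 10 tumors. With 6 to 49 defensin-bearing cells a tumor, the values of low genes among these are imprecise. The epithelial genes of the rule were also mostly lower with defensins. Epcam was at 2354 against 2607 CPM, Krt8 at 1497 against 1794 CPM and Krt18 at 1580 against 1865 CPM. Each was higher with defensins in only 2 of 10 tumors. The part of such a shift in the lower values of other genes was not tested.

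Beyond the rule, Paneth-like cells differed broadly from the other tumor epithelium. Of 13243 genes with enough counts, edgeR's quasi-likelihood test on sums per tumor, with the tumor as a block, called 2440 higher (18.4%) and 2812 lower (21.2%) at a Benjamini-Hochberg adjusted p under 0.05. The test compares cells taken from the same 10 tumors, and its p-values measure the spread between tumors, 4, 2 and 4 of which share a mouse. The median difference over all tested genes was -0.04 on the log2 scale.

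Clps, Habp2, Cma1 and Agt led the genes that rose. Among genes with at least 50 CPM that rose in all 10 tumors, the largest log2 difference was that of Clps, colipase, which lay between 334 and 1244 (median 824) CPM in Paneth-like cells and between 1.71 and 17.6 (median 7.41) in the others, with no overlap and a log2 fold change of 6.80 (SE 0.22). Next came Habp2, a hyaluronan-binding serine protease (143 ± 39.2 against 4.18 ± 2.93 CPM, mean and SD over 10 tumors), Cma1, a chymase known from mast cells (116 ± 76.1 against 2.85 ± 1.78), and Agt, angiotensinogen (between 52.3 and 177 CPM against 1.32 to 7.31). Reg4 followed with a log2 fold change of 5.29 (SE 0.13). The Kazal-type protease inhibitor Spink4 reached 29382 ± 11164 CPM against 1134 ± 799.6, beside a mean of 28055 CPM for Lyz1, and Spink1 reached 4052 ± 2531 against 182 ± 108. Upb1, an enzyme of pyrimidine breakdown, rose by 5.04, Ramp1, a subunit of the CGRP receptor, by 4.74 and the chemokine Ccl9 by 4.25. Adjusted p-values of these 10 genes lay between 1.01e-14 (Reg4) and 1.15e-09 (Spink1). Cma1 in tumor 6 (2.15 CPM) and Spink1 in tumor 6 (256 CPM) lay within the range of the compared values, and the other 8 genes did not overlap.

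Among genes with at least 50 CPM in the compared cells that fell in all 10 tumors, Gsdmc4, 2610528A11Rik, Clca4b and Dmbt1 led. Gsdmc4 had 3 UMIs in all Paneth-like cells against 18768 in the compared ones, and entered the test through the latter. Gsdmc4, a gasdermin, was at 0.252 ± 0.466 against 56.7 ± 32.9 CPM, 2610528A11Rik, the ligand of the chemoattractant receptor GPR15, at 4.76 ± 8 against 223 ± 124, the chloride channel regulator Clca4b at 2.89 ± 3.97 against 153 ± 111, and Dmbt1, a scavenger receptor-like secreted glycoprotein, at 8.95 ± 4.26 against 358 ± 213. The membrane mucin Muc3 fell by 5.12 on the log2 scale and the acute phase protein Saa1 by 3.79, again with no overlap between the groups. Zg16, a goblet cell lectin, fell by 4.44 but lay between 0 and 1622 CPM in Paneth-like cells and overlapped the others. The hormone Pyy fell by 3.48. The immunoglobulin genes Igkc and Jchain complete the 10. Plasma cells express those, and the compared barcodes, unlike the Paneth-like ones, were allowed Ptprc, so the rule itself lowers immune transcripts in the Paneth-like set. With the same criteria on both sides, Igkc and Jchain were still called lower, at -2.86 and -2.70 on the log2 scale. Neither passed against the goblet-like or the Lgr5+ cells described below, which also had no Ptprc. Igkc differed by -0.16 and -0.31 (edgeR adjusted p = 0.808 and 0.780) and Jchain by 0.07 and -0.41 (0.934 and 0.723).

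Paneth cell products outside the rule did not all rise. Of 16 tested list members (of 20 listed), 9 rose, 4 fell and 3 did not pass, with a median log2 difference of 1.26. Over all tested genes 18.4% rose and 21.2% fell, and nothing about the group is read from the 4 that fell. Reg3g, a bactericidal C-type lectin, was at 1257 ± 531 against 238 ± 244 CPM and rose by 2.92, the cell surface protein Cd24a rose by 1.81 and Nupr1, a stress-induced chromatin protein, by 1.18. Agr2, a disulfide isomerase for mucins, and the trefoil factor Tff3 rose by 3.08 and 4.11, but goblet cells make them as well. The pentraxin Mptx2, a marker of small intestinal Paneth cells, lay between 0 and 180.2 (median 0.349) CPM against between 0.110 and 139 (median 19.6) and fell by 1.82 (adjusted p = 0.00204), a call lost without mouse C (log2 difference -1.06, adjusted p = 0.0898) and without doublet-marked barcodes (-1.27, adjusted p = 0.0556). Its relative Mptx1 rose by 1.77 (adjusted p = 0.00552), but the call was lost with tumors summed per mouse (1.07, adjusted p = 0.254) and the direction turned without mouse C (-0.11, adjusted p = 0.932). Both genes had tumors at 0. Reg3b (465 ± 533 against 573 ± 776 CPM) did not pass. Lyz2, the lysozyme of macrophages, was not raised with Lyz1: it lay between 7.47 and 753 (median 29.2) against between 93.7 and 393 (median 229.8) CPM and fell by 2.25 (adjusted p = 1.52e-04), a call lost when both groups met the same criteria, at least 10 UMIs of the epithelial genes and no Ptprc (log2 difference -0.02, adjusted p = 0.957), and of the opposite sign without doublet-marked barcodes (0.19, adjusted p = 0.761).

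Among niche factors, Wnt3 stood out. Wnt3, the Wnt ligand that Paneth cells offer to stem cells, was at 43.3, 56.9, 36.0 and 38.4 CPM in the Paneth-like cells of tumors 1 to 4, 20.0, 83.9, 44.0 and 44.7 in tumors 5 to 8, and 21.8 and 22.4 in tumors 9 and 10. In the other epithelium it was between 0.0804 and 0.985 (median 0.371) CPM. The groups did not overlap, and the log2 fold change was 6.98 (SE 0.23) with an adjusted p of 3.44e-13. The Notch ligands Dll4 (25.5 ± 7.29 against 6.96 ± 0.981 CPM) and Dll1 (9.57 ± 3.37 against 2.82 ± 0.887) also rose without overlap. Of 7 tested niche factors 3 rose and 2 fell, with a median of 0.60, beside 18.4% and 21.2% of all tested genes. Nothing about the group is read from these counts. The 2 that fell were Wnt6 (-1.83) and Bst1, an ADP-ribosyl cyclase of Paneth cells with 8 UMIs in all Paneth-like cells (0.519 ± 0.783 against 3.89 ± 2.18 CPM, and a mean of 0.708 in Lgr5+ cells, which like Paneth-like cells lack Ptprc). Myeloid transcripts were lower alongside it, and their part in this value was not tested. Egf, the growth factor of small intestinal Paneth cells, had too few counts to test, at 1.63 ± 1.15 against 0.454 ± 0.189 CPM, and Areg (168 ± 75.6 against 139.7 ± 100.4) and Tgfa did not pass.

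The transcription factors of the secretory lineage rose nearly as a group, 13 of 16 tested with 3 lower (median 1.01). Atoh1 lay between 27.3 and 92.5 (median 56.7) CPM against between 1.16 and 7.89 (median 4.66) and rose by 3.75 (SE 0.16). Gfi1 rose by 3.56, Spdef by 3.88, Bhlha15 (Mist1, a factor of granule-rich cells) by 3.93, Creb3l1 by 1.82 and Foxa2 by 1.06. Sox9, which Paneth cells need, was at 228 ± 64.7 against 128 ± 26.7 CPM, higher in 10 of 10 tumors (log2 fold change 0.96 (SE 0.06)), and Xbp1, the unfolded protein response factor, rose by 0.74. Hes1, the Notch effector that represses Atoh1, fell by 0.42 and Sox4 by 0.27. The third called lower, the nuclear receptor Nr5a2, had 1 UMI in all Paneth-like cells and 967 in the compared ones (2.92 ± 1.87 CPM), and entered the test through the latter. All 20 tested genes of the endoplasmic reticulum and unfolded protein response rose (median 0.80), among them the chaperone Hspa5 (by 0.82), Calr (by 1.02) and the disulfide isomerase Pdia3 (by 0.91). Of 15 autophagy and granule secretion genes 6 rose and 1 fell (median 0.18), beside 18.4% and 21.2% of all tested genes. The granule GTPases Rab27a and Rab3d rose by 2.56 and 1.52, Lrrk2 fell, and the Paneth cell autophagy gene Atg16l1 was among the 8 that did not pass.

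Goblet and deep crypt secretory genes were part of the profile. Of 14 tested goblet cell genes 12 rose, 1 fell (Zg16) and 1 did not pass (Clca1), with a median of 2.14. Over all tested genes 18.4% rose and 21.2% fell. Muc2, the gel-forming mucin of goblet cells, lay between 1260.5 and 5891 (median 2044) CPM against between 60.5 and 1212 (median 244) without overlap (log2 fold change 3.06 (SE 0.24)). Guca2a, guanylin, rose by 3.99 and Fcgbp, a mucus-binding protein, by 1.99. All but 1 of the 5 deep crypt secretory genes rose (median 2.28). Reg4, the defining gene of those cells, lay between 256 and 4166 (median 2541) CPM against between 5.05 and 191 (median 60.1), lowest in tumor 6 on both sides, and Kit was at 34.7 ± 12.8 against 7.02 ± 2.95. Hgfac rose by 2.28 and Mxd4 by 0.43, while Cldn4 did not pass. At full depth, 611 of 733 Paneth-like cells (83.4%) had UMIs of Muc2 and of Reg4, and 294 (40.1%) of Muc2 and of Wnt3. Alone, Muc2 was in 92.5%, Reg4 in 88.8% and Wnt3 in 42.4% of them, and in 3.01%, 1.22% and 0.0364% of T cell barcodes, so no link between the genes is read from the joint counts.

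Wnt target genes were mostly lower. Of 18 tested, 11 fell, 6 did not pass and 1 rose (median -0.51). Axin2, the general feedback target, lay between 53.6 and 98.2 (median 74.0) CPM against between 64.8 and 185 (median 147), lower in 10 of 10 tumors with a log2 fold change of -0.78 (SE 0.08). Nkd1 (-1.02), Prox1 (-0.89), Lef1 (-0.97), Notum (-0.65), Rnf43 (-0.36) and Ccnd1 (-0.64) fell as well. The exception was Ephb3, the receptor that holds Paneth cells at the crypt base, at 119.6 ± 39.3 against 33.4 ± 7.09 CPM with no overlap (log2 fold change 1.96 (SE 0.07)). Of 10 stem cell genes 4 were higher and 2 lower (median 0.07), beside 18.4% and 21.2% of all tested genes, and nothing is read from the 2. Prom1 rose by 1.23 and Slc12a2, an ion cotransporter, by 1.39, whereas Ascl2, the stem cell master factor, fell by 1.15. Lgr5 itself was at 54.2 ± 31.2 against 37.8 ± 20.0 CPM and rose by 0.63 (SE 0.10), higher in 9 of 10 tumors with overlapping ranges. That call was lost when barcodes were thinned to equal depth (log2 difference 0.26, adjusted p = 0.304).

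Cell cycle genes fell together, 18 of 18 tested with a median of -0.77. Mki67 was at 85.1 ± 39.6 against 127 ± 30.1 CPM, lower in 9 of 10 tumors (log2 fold change -0.52 (SE 0.14), adjusted p = 0.00584), a call lost without mouse C (-0.42, adjusted p = 0.0781), and Pcna fell by 0.27. Of the 12 genes of the p16 and cell cycle inhibitor axis 4 fell and 0 rose (median -0.30), beside 21.2% of all tested genes called lower, and nothing about the group is read from that count. Cdkn2a, the gene targeted by the p16 epimutation, lay between 6.76 and 41.2 (median 27.4) CPM against between 23.9 and 88.1 (median 46.0) and was lower in 10 of 10 tumors (log2 fold change -0.82 (SE 0.13), adjusted p = 8.34e-05). Counts by gene do not separate the p16 and p19Arf transcripts. Cdk4, the kinase that p16 binds, fell by 0.64, and Cdkn1a (p21) did not pass. Among 9 zinc handling genes 5 fell and 2 rose (median -0.44), beside 21.2% and 18.4% of all tested genes. The 2 that rose were the zinc transporters Slc30a7 and Slc39a7, and the metallothioneins Mt1, Mt2, Mt3 and Mt4 were among those that fell. Mt4, lower in 7 of 10 tumors, ranged from 0 to 1272 CPM and its call (adjusted p = 0.0194) was lost without tumor 2, 4 or 8 (adjusted p between 0.0506 and 0.0525), with tumors summed per mouse (log2 difference -0.75 in place of -1.59, adjusted p = 0.173) and without mouse C (-0.49, adjusted p = 0.512). Slc30a2, the zinc transporter of Paneth granules, stood on the product list and did not pass. Of 9 fetal-like and regenerative genes 5 fell and 0 rose (median -0.67), beside 21.2% and 18.4% of all tested genes. Ptn was at 107 ± 123 against 270.5 ± 153 CPM, lower in 10 of 10 tumors. Against Lgr5+ cells 4 of 8 tested members of the fetal-like list were lower and 3 higher (median -0.28), beside 23.7% and 25.5% of all tested genes. Against goblet-like cells 1 of 6 was lower and 3 were higher (median 0.78), beside 19.1% and 17.1%.

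Absorptive and tuft markers that passed were mostly lower, and enteroendocrine markers were mixed. Of 10 absorptive colonocyte genes 9 fell (median -4.05), Car4 to 0.119 ± 0.376 CPM (1 UMI in all) from 25.8 ± 18.3. The 1 that rose was Guca2b, uroguanylin. Car4, Clca4b (51 UMIs in all Paneth-like cells against 46778) and Muc3 (49 against 43189) entered the test through the compared cells. The count and the median thus rest in part on the filter, and nothing more is read from them. Against Lgr5+ cells 3 absorptive genes could be tested, with 2 higher and 0 lower (median 0.90). Of 6 enteroendocrine genes 3 fell and 2 rose (median -1.50), beside 21.2% and 18.4% of all tested genes. The 2 that rose were secretin (Sct, by 3.74) and Tph1. Of 6 tuft cell genes 4 fell and none rose (median -1.54). Chga, among the enteroendocrine genes that fell, had 1 UMI in all Paneth-like cells and likewise entered the test through the compared ones. Of 12 epithelial defense genes 5 were higher and 4 lower (median 0.07), beside 18.4% and 21.2% of all tested genes. The chemokine Ccl6 rose by 3.78 and the IgA transporter Pigr by 0.96. Of 10 cytokine receptors 3 rose and 0 fell (median -0.03), a share near the 18.4% of all tested genes called higher. The 3 were Il13ra1 (by 0.92), Il4ra (by 0.48) and Il10rb.

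Myeloid and lymphoid transcripts were lower in Paneth-like than in compared barcodes. The compared barcodes were allowed Ptprc, so the rule itself lowers these transcripts in the Paneth-like set. The numbers called lower are therefore given as descriptions. The 12 myeloid genes summed to 67.3 to 3407 CPM (median 262) against 1364 to 6536 (median 3498), with 11 of 12 tested called lower (median -2.04), and the 9 lymphoid and plasma cell genes to 61.0 to 4057 CPM (median 465) against 2317 to 15605 (median 6665), with 5 of 5 lower (median -2.26). The 6 stromal and endothelial genes summed to 0 to 123 CPM (median 1.28) against 1.26 to 41.7 (median 4.06), and the 1 of them tested, Pecam1, did not pass. Dcn and Col3a1, fibroblast genes below the count filter, were at 0 in the median tumor and reached 70.2 and 47.1 CPM in the Paneth-like cells of tumor 4. The erythroid genes summed to 0 to 3454 CPM (median 9.14) against 4.57 to 2344 (median 277), and of 4 tested none passed (median -0.25). In Paneth-like cells the T cell gene Cd3d was at 0.407 ± 0.808 CPM. Dissociation stress genes were 7 higher and 3 lower of 16 (median 0.08), beside 18.4% and 21.2% of all tested genes. The higher ones included Fos, Jun and Egr1. Against Lgr5+ cells, which like Paneth-like cells had no Ptprc, 6 of 8 tested myeloid genes were higher in Paneth-like cells (median 1.03), Lyz2 among them, and against goblet-like cells 4 of 6 were lower (median -1.16). Of all tested genes, 25.5% were higher than in Lgr5+ cells and 19.1% lower than in goblet-like cells. The part of other cells' RNA or of handling in the results was not tested.

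Goblet-like cells, another secretory type of these tumors, were 725 barcodes with at least 3 Muc2 UMIs, at least 5 of Fcgbp, Clca1, Zg16 and Spink4, at least 3 of the epithelial genes, no Ptprc and fewer than 10 Lyz1. Against them, 1354 genes rose (17.1%) and 1516 fell (19.1%) out of 7918 with enough counts. The largest rises among genes with 50 CPM, in all 10 tumors, were those of Habp2 (143 ± 39.2 against 19.7 ± 20.2 CPM), the lipase-related Pnliprp1 (68.0 ± 87.1 against 3.89 ± 5.32 CPM), the ribonuclease Rnase1 (164 ± 74.6 against 19.5 ± 21.9 CPM), Reg3g (1257 ± 531 against 163 ± 116 CPM) and the proteoglycan Spock2 (149 ± 93.2 against 16.5 ± 12.8 CPM). Under the same limits, the largest falls were those of 2610528A11Rik, Muc3, Saa1, the matricellular protein Ccn3 (7.14 ± 11.4 against 189 ± 146 CPM) and Dmbt1. Of the 10 genes leading against the other epithelium, Spink1 (4052 ± 2531 against 3419 ± 2108 CPM, log2 fold change -0.00, SE 0.17, adjusted p = 0.998) and Ramp1 (799.7 ± 249 against 644 ± 185 CPM, log2 fold change 0.23, SE 0.11, adjusted p = 0.106) did not pass against goblet-like cells. Spink4, which helped to choose those, was at 29382 ± 11164 against 24525 ± 9889 CPM.

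Most Wnt target and stem cell genes were higher than in goblet-like cells. Of 15 tested Wnt target genes 11 were higher in Paneth-like cells and 1 lower (median 1.73, beside 0.01 over all genes), and of 8 stem cell genes 7 were higher and none lower (median 0.75). Axin2 was at 73.4 ± 14.1 against 19.7 ± 5.93 CPM, Nkd1 at 126 ± 74.7 against 17.9 ± 17.6 CPM and Lgr5 at 54.2 ± 31.2 against 11.2 ± 7.24 CPM. Wnt3 was again higher (41.1 ± 19.2 against 4.72 ± 4.83 CPM, log2 fold change 3.32 (SE 0.31)), as were Ephb3 (119.6 ± 39.3 against 39.5 ± 26.2 CPM), Sox9 (by 1.08), Ptn (by 2.96) and Cdkn2a (24.4 ± 12.6 against 4.99 ± 5.73 CPM). Of 4 niche factors 3 were higher and none lower (median 0.69). Goblet cell genes were 7 of 9 lower and 1 higher (median -0.95), beside 19.1% and 17.1% of all tested genes. The lineage factors Atoh1 (-0.72), Spdef (-0.60) and Creb3l1 (-1.25) were lower, within 4 higher and 5 lower of 14 factors (median -0.16). The goblet-like cells were chosen by goblet cell genes, which can itself widen the differences in goblet cell genes and lineage factors. Muc2, described only because it chose the goblet-like cells, was at 2452 ± 1445 against 8277 ± 3822 CPM. Endoplasmic reticulum genes were 3 higher and 3 lower of 20 (median -0.02), near the 17.1% and 19.1% of all tested genes. Nothing about the group is read from that count. Of 13 Paneth cell products 5 were higher and 7 lower (median -0.66). Reg4 was higher (2312 ± 1126 against 1116 ± 584 CPM, adjusted p = 1.52e-04), and Kit, at 34.7 ± 12.8 against 39.0 ± 10.5 CPM, did not pass (adjusted p = 0.125). Cell cycle genes were 7 of 17 lower and none higher (median -0.45).

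The Lgr5+ tumor cells, the neighbors that Paneth cells serve in a normal crypt, were 2399 barcodes with at least 2 Lgr5 UMIs, at least 10 of the epithelial genes, no Ptprc, fewer than 10 Lyz1 and not goblet-like. Paneth-like cells had 2717 genes higher (25.5%) and 2525 lower (23.7%) among the 10672 tested. The largest changes are ranked among genes with at least 50 CPM and 1 direction in all 10 tumors. Mt4, which fell by 2.15 on the log2 scale, was not lower in every tumor and is outside this ranking. The 5 largest rises were those of Retnlb, a goblet resistin-like molecule (median 51.3 CPM, from 13.6 to 2555 in tumor 6, against a mean of 0.380), Sval1 (2449 ± 1263 against 5.45 ± 5.52 CPM), Muc2, Clps (784 ± 287 against 1.83 ± 1.84 CPM) and Spink4. Muc2 and Spink4 helped to remove goblet-like barcodes from the Lgr5+ set, which widens their difference. The 5 largest falls were those of Pyy (18.7 ± 39.6 against 138 ± 185 CPM), the intermediate filament Vim (166 ± 171 against 624 ± 315 CPM), the cysteine dioxygenase Cdo1 (16.6 ± 8.39 against 78.5 ± 14.0 CPM), Ptn (107 ± 123 against 362 ± 233 CPM) and Pdgfrl (13.9 ± 17.0 against 53.1 ± 21.6 CPM).

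Wnt targets were mostly lower than in Lgr5+ cells, 12 of 18 against 2 higher (median -0.89, beside -0.02 over all genes), with Axin2 at 73.4 ± 14.1 against 211 ± 34 CPM. The 2 higher were Ephb3 (119.6 ± 39.3 against 39.8 ± 11 CPM) and Cd44. Stem cell genes were 6 of 9 lower and 3 higher (median -0.67), the higher ones being Prom1, Rgmb and Slc12a2. The Lgr5+ cells were chosen by a stem cell gene, which can itself widen the differences in Wnt target and stem cell genes. Wnt3 was 41.1 ± 19.2 against 0.444 ± 0.431 CPM, with a log2 fold change of 6.75 (SE 0.25). Secretory factors were 13 of 15 higher and 2 lower (median 0.94), endoplasmic reticulum genes 19 of 20 higher (median 0.89), goblet cell genes 12 of 12 higher, Muc2, Fcgbp and Spink4 of the removing rule included, and Paneth cell products 10 of 13 higher with 2 lower (median 1.70). Cell cycle genes were 14 of 18 lower and none higher (median -0.70), although Mki67 did not pass (85.1 ± 39.6 against 118 ± 40.4 CPM, adjusted p = 0.125). Cdkn2a was lower than in Lgr5+ cells (24.4 ± 12.6 against 50.8 ± 25.8 CPM).

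**Figure D4:**
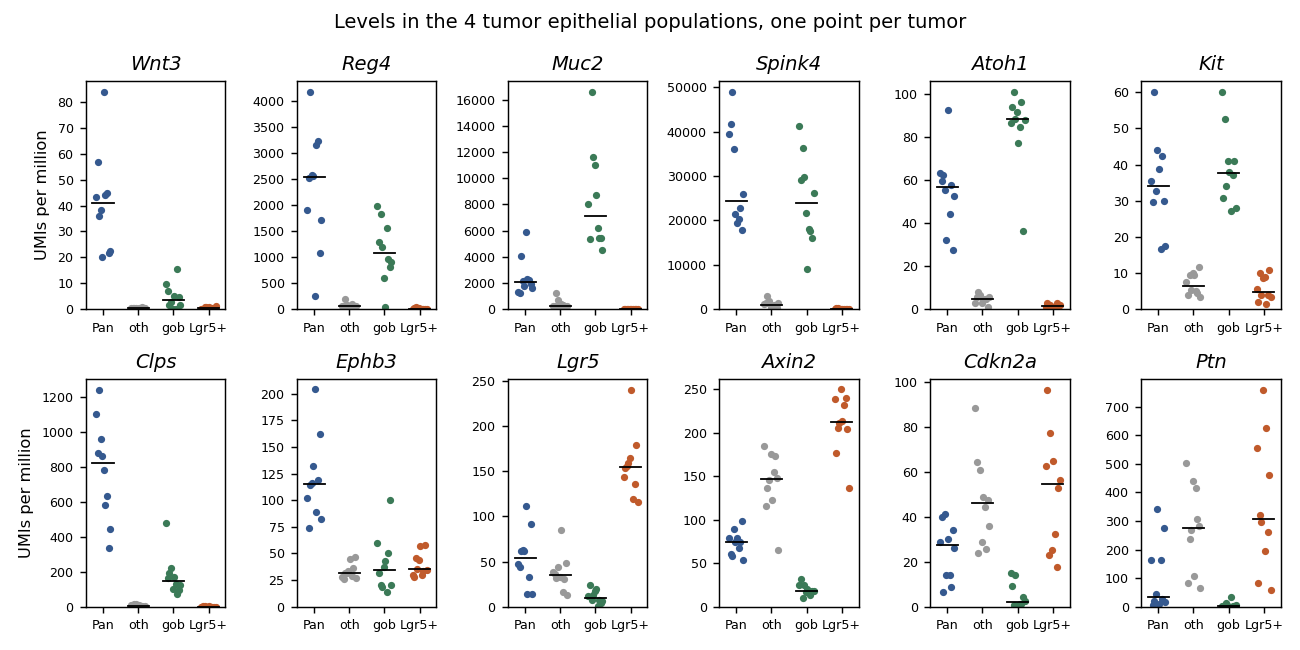
Counts per 1000000 UMIs (CPM, linear axes) of 12 genes in Paneth-like (Pan), other epithelial (oth), goblet-like (gob) and Lgr5+ cells, 1 point per tumor, with the median as a line. Wnt3 and Clps are highest in Paneth-like cells, Muc2 is highest in goblet-like cells, and Axin2 lies at a mean of 73.4 CPM in Paneth-like cells, between goblet-like and Lgr5+ cells.

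**Figure D5:**
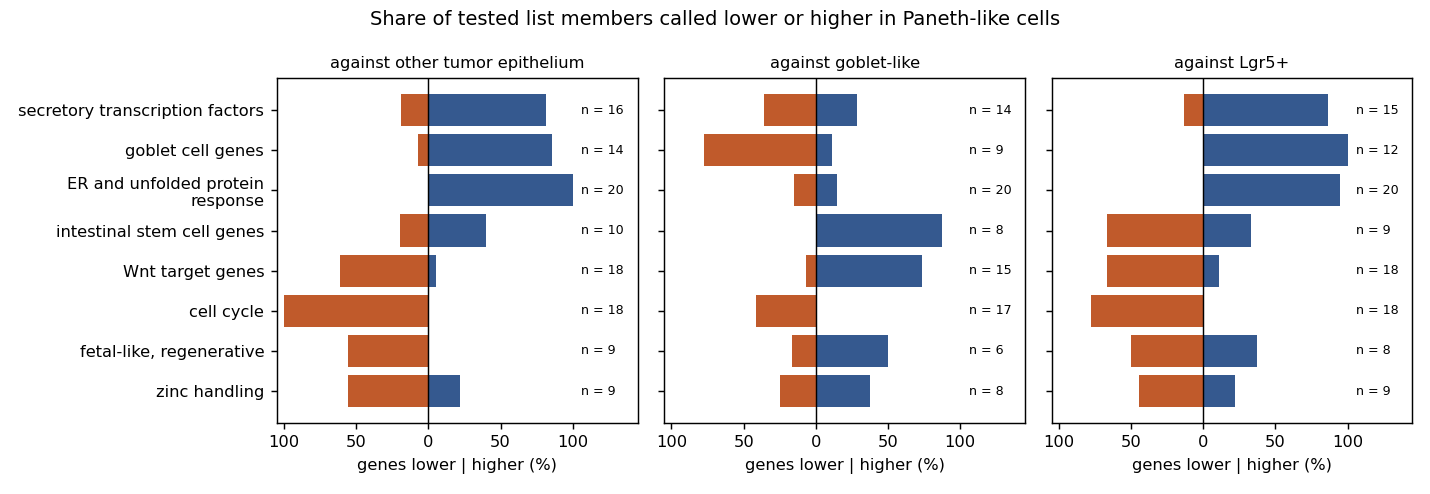
Percentage of the tested members of 8 gene lists called lower (orange, to the left) or higher (blue, to the right) in Paneth-like cells by edgeR at an adjusted p under 0.05, against each of the 3 compared populations, with the number tested. Wnt target genes lie mostly to the left against other epithelium and Lgr5+ cells and mostly to the right against goblet-like cells. Muc2, Fcgbp and Spink4, which removed goblet-like barcodes from the Lgr5+ set, are among the goblet cell genes counted against it.

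Levels summed over cells do not say how many cells carry a transcript, so barcodes were thinned to 3000 UMIs each, leaving out 25 Paneth-like and 695 compared barcodes that were shallower. Shares are means ± SD over 10 tumors, tested by exact sign-flip permutation with p adjusted over 14 genes. The smallest p this design can give is 0.00195. Muc2 was found in 81.6% ± 5.79 against 5.50% ± 2.63 of the compared barcodes, Reg4 in 74.9% ± 19.5 against 6.04% ± 4.03, Atoh1 in 17.6% ± 7.73 against 1.29% ± 0.556, Sox9 in 44.8% ± 5.61 against 28.8% ± 3.53 and Wnt3 in 12.9% ± 5.29 against 0.107% ± 0.117. All 5 were higher in 10 of 10 tumors (adjusted p = 0.00342 by exact permutation). In T cell barcodes, which should lack them, the shares were 1.96%, 0.698%, 0%, 0.517% and 0.0517%. The 0 for Atoh1, in 3869 thinned T cell barcodes, allows a share of up to 0.0775%. Without thinning, the Wnt3 shares were 39.6% and 0.493%, and the Muc2 shares 91.9% and 10.7%.

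Axin2 was found in 16.1% ± 4.93 against 34% ± 5.56, Ptn in 5.72% ± 4.64 against 22.2% ± 10.6, Mki67 in 11.8% ± 8.07 against 19.8% ± 3.81 and Top2a in 8.10% ± 3.88 against 13.5% ± 2.76, the first 2 lower in 10 of 10 tumors and the others in 9 of 10 (adjusted exact permutation p of 0.00342, 0.00342, 0.00911 and 0.00746). The Top2a share in Paneth-like cells lay below that of T cell barcodes (10.3%) and Mki67 lay at 8.27% in T cells, some of which cycle. Kit was in 9.74% ± 5.57 against 2.39% ± 1.11 (adjusted exact permutation p = 0.00608), with 6.80% of T cell barcodes. Chga was found in 0 of 708 thinned Paneth-like cells, which allows a share of up to 0.424%, against 0.295% of the others (lower in 10 of 10 tumors, adjusted exact permutation p = 0.00342). Its expected share over all draws was 0.0363% against 0.277% (lower in 9 of 10, adjusted exact permutation p = 0.00994). Without thinning it was in 0.333% and 0.884% (adjusted exact permutation p = 0.231), and it had 1 UMI in all Paneth-like cells. The Top2a call was lost in draws of 2000 UMIs (difference -1.97 percentage points, adjusted exact permutation p = 0.147) and of 5000 UMIs (-5.37, adjusted exact permutation p = 0.0547). For Lgr5 and Cdkn2a the single random draw mattered as well. Lgr5 was in 14.9% ± 6.95 against 11.4% ± 4.68 (adjusted exact permutation p = 0.00746), but its expected share over all possible draws was 13.3% against 11.5% (adjusted exact permutation p = 0.119), and no difference in Lgr5 shares is read from these. Cdkn2a was in 5.72% ± 5.01 against 9.24% ± 3.69 (adjusted exact permutation p = 0.0715), and its expected shares were 5.17% and 9.17%, lower in 10 of 10 tumors (adjusted exact permutation p = 0.00273). Dclk1 was in 0.797% ± 1.78 against 1.48% ± 1.47 (adjusted exact permutation p = 0.248) and its call likewise depended on the draw.

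Whether the Paneth-like profile differed between the 3 mice was tested by an interaction of mouse and population. No gene of 13243 passed an adjusted p under 0.05 in edgeR (0.0%, lowest adjusted p 0.104), with 780 at an unadjusted p under 0.05 (5.89% of all), and DESeq2 called 14. Mouse B entered it with 2 tumors.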

How the data were processed

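Single-cell 3' libraries of 10 colon tumors and 3 adjacent mucosa samples were used. The authors deposited UMI counts per gene and barcode, made with Cell Ranger; the labels' processing notes give version 6.0.0 on mm10, and the study's methods name another version. The members, gene lists and named genes were chosen with earlier results of these data known. Barcodes were kept with at least 500 UMIs, 200 genes and under 25% mitochondrial UMIs, and populations were set by UMI minimums as described. UMIs were summed per tumor and population and compared by edgeR 4.0.16 (R 4.3.3) with its quasi-likelihood test, TMM scaling and low-count filter, with the tumor as a block because both populations came from the same library. Adjusted p-values (Benjamini-Hochberg) of the fits were computed over all genes past the low-count filter. Those of the rule and the alpha-defensins were among them, and their own p-values are not given. The SE of a log2 fold change was taken as its absolute value divided by the square root of its F statistic, and is approximate. Replicate numbers shared by mucosa and tumors pair nothing. Shares were compared by exact permutation (scipy 1.17.1). The fits were tested on simulated data. Doublet scores from simulated neighbors marked up to 0.8% of barcodes per 1000. Marked barcodes stayed in the main fits.

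Named genes were the 10 largest changes each way against other epithelium (5 against the other populations) with 1 direction in every tumor and at least 50 CPM, the up to 4 most abundant members of each list, a fixed set of Paneth and tumor genes and the 8 most abundant alpha-defensins. Further list members were named after their values were seen. DESeq2 1.42.0, other factors, filters, thresholds, depths and left-out tumors or mice were tried as alternatives.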

Additional observations from a re-analysis of the deposited data

Results flagged for a closer look

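Of 34 groups of 10 tumor values checked for a sample standing apart from the rest by Dixon's criterion, 5 did so. For independent groups of normally distributed values 1.7 would be expected. Defa21, Defa22 and Defa30 can share reads, so the groups are not independent, and no excess over that number is read. All 5 were high values in the summed Paneth-like cells of 1 tumor, and in each a few cells held most of the UMIs. Lyz2, the macrophage lysozyme, was at 753 CPM in tumor 5, where the next tumor had 66.7, and 3 of the tumor's 30 cells held 91.5% of those UMIs. Mptx2 was at 180.2 CPM in tumor 5 against 23.8 in the next, with 95.6% of the UMIs in 1 cell. Defa21 was at 2930 CPM in tumor 10 against 1051, with 97.7% of the UMIs in 1 cell. Defa22 was at 2600 CPM in tumor 7 against 1136, and Defa30 at 1793 CPM in the same tumor against 545. The top cell gave 77.0% and 57.4% of the UMIs of these genes and carried a doublet mark. Doublet marks were on 24 of the 32 Paneth-like cells of tumor 7, and their part in these values was not tested.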

How the results depend on the processing

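Counts of genes called against the 3 compared populations kept within 1.5 times of the values given under DESeq2, other scaling factors, a higher Lyz1 minimum, the same criteria on both sides, a stricter mitochondrial limit (8 tumors left against goblet-like cells, 9 otherwise), tumors summed per mouse, and without mouse A or B. They moved in the 6 tumors left without mouse C, to 1179 higher and 1270 lower against other epithelium, 635 and 775 against goblet-like cells, and 1386 and 1176 against Lgr5+ cells. Thinned to equal depth, with 10015, 1953 and 4673 genes left to test, the counts were 1135 and 1560, 304 and 350, and 1028 and 891. Without doublet-marked barcodes, which left 9 tumors and 6705 genes in that comparison, 831 genes were higher than in goblet-like cells. Without the low-count filter the median log2 difference against other epithelium was -0.28, and 2046 genes were higher and 3846 lower. The interaction with mouse gave 14 genes in DESeq2, 45 without the filter, 2 at the stricter mitochondrial limit, 14 after thinning, and between 0 and 5 with 1 tumor left out (5 without tumor 3, 3 without tumor 4, 3 without tumor 8, 1 without tumor 10). The exact permutation p of the share by mouse ranged from 0.0405 (without tumor 8) to 0.229 with 1 tumor left out. The cause of these shifts was not tested beyond the numbers of genes and tumors given.

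The replicate block (the tumor) raised the number of calls. With no replicate block, 2142 genes were higher and 2068 lower against other epithelium, 1204 and 1316 against goblet-like cells, and 2339 and 1997 against Lgr5+ cells, and among the genes followed individually Lyz2, Lgr5, Mki67, Cdkn2a, Mptx1, Mptx2, Mt4, Ptn and Zg16 lost their calls. Lyz2 turned to 0.19 (adjusted p = 0.761, edgeR) without doublet-marked barcodes and Mptx1 to -0.11 (adjusted p = 0.932) without mouse C. The difference in Lgr5 shares turned to -1.40 percentage points in a single draw of 2000 UMIs. Of the other values for single genes, 873 fold changes and 112 share differences kept direction and call, 20 and 18 lost the call, and 9 share differences gained it. Most share differences lost their call in the 6 tumors without mouse C, where the smallest adjusted exact permutation p was 0.0547. Genes under the low-count filter, Egf among them, were not tested.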
